A study of Mus musculus with 4 samples.

Results

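Txnip, 4 of its relatives in the alpha-arrestin family (Arrdc1, Arrdc2, Arrdc3 and Arrdc4) and the glucose-sensing transcription factors Mlxip and Mlxipl were followed through the polyadenylated RNA of the adult mouse heart. These 7 genes were taken by symbol from the 23420 gene symbols of the count tables, and all 7 were listed and counted. Txnip had been picked because its level differed widely between libraries, so its spread is described here and not tested. The other 6 were picked by family and function. The series held 4 libraries of a single group of wild-type C57BL/6J mice, labelled male and aged 12 weeks, with no treatment named and no second group to set them against. The labels call the tissue whole heart, while the protocol names the frozen tips of the ventricles, and strand was not kept. Libraries held 10523709 to 15359296 reads assigned to genes.

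Alpha-arrestins are adaptor proteins with the fold of the visual and beta-arrestins. Most carry short proline-rich motifs that bring ubiquitin ligases of the NEDD4 family to proteins of the cell surface, which are then taken into the cell. Txnip also binds thioredoxin and holds back glucose uptake by promoting the internalisation of the transporters Slc2a1 and Slc2a4. Mlxip (MondoA) and Mlxipl (ChREBP) dimerise with Mlx, enter the nucleus when phosphorylated glucose accumulates, and bind carbohydrate response elements. Txnip and Arrdc4 are among the best known genes that they switch on, as shown mainly in cell lines, muscle and liver.

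The promoters of Txnip, Arrdc4 and Arrdc2 are shown because these 3 alpha-arrestins varied most between libraries and each in its own order. Each run is a RefSeq window on build GRCm38.p6, 250 bases before the transcription start and 50 after it, written 5′ to 3′ on the strand of the gene. The windows lie at chr3:96557707-96558006 (plus strand) for Txnip, chr7:68749189-68749488 (minus strand) for Arrdc4 and chr8:70839671-70839970 (minus strand) for Arrdc2. Capitals mark matches to any of 4 motifs, searched on both strands and chosen after the Txnip sequence had been seen.
Txnip: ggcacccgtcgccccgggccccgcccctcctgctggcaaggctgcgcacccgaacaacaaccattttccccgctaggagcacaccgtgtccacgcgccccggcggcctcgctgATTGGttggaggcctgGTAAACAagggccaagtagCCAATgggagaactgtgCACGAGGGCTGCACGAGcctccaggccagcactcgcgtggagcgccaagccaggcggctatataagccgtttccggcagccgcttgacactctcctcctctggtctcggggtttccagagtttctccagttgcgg
Arrdc4: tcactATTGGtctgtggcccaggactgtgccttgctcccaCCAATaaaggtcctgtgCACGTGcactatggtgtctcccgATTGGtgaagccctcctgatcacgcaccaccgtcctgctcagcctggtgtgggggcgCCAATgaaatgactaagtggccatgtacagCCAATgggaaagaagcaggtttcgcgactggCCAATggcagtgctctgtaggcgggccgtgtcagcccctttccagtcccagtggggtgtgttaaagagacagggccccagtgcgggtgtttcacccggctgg
Arrdc2: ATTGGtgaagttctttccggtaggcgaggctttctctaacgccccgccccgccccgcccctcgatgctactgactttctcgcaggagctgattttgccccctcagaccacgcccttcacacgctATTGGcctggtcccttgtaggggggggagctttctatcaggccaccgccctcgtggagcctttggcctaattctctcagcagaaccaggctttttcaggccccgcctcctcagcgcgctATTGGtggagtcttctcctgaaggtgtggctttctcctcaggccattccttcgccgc

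The motifs were the E-box CACGTG, a pair of E-box-like sites 5 bases apart, CCAAT, and GTAAACA, the core that FOXO factors recognise. The pair was searched as CACGNG, any 5 bases, CACGNG, a layout that a carbohydrate response element can take. Other layouts of that element were not searched, so a window without a match may still hold it. The pair was chosen after the Txnip sequence had been seen, so its match there was fixed in advance. Of the 7 genes, the paired sites were found in the Txnip window alone, beginning 85 bases before the start, and in 0.0487% of 32851 mouse promoter windows. GTAAACA stood 121 bases before the start of Txnip, again in that window alone among the 7 genes, and in 3.65% of all windows. The intact E-box CACGTG was absent from the Txnip and Arrdc2 windows and stood 193 bases before the start of Arrdc4, and 98 bases before the start in 1 of the windows of Mlxipl. It was present in 7.15% of all windows. CCAAT, held by 37.4% of all windows, matched 2 times in Txnip, 6 times in Arrdc4 and 3 times in Arrdc2. All 7 genes had a window and Arrdc1 matched none of the motifs. A match is a description of the letters and not evidence of binding.

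Sex-linked transcripts split the libraries. Xist, which coats the inactive X of female cells, had 5, 1897, 1806 and 19 counts in libraries 1 to 4, and the Y-linked Ddx3y had 341, 0, 1 and 437. Libraries 2 and 3 thus went against their label, and values are given for each library and for libraries 1 and 4 alone where they bear on a result. Cardiomyocyte markers were abundant, with Myh6, the adult myosin heavy chain, at 46667 to 56973 counts per 1000000 gene counts (CPM) and Tnnt2, cardiac troponin T, at 9833 to 10348 CPM. The 7 markers of cardiomyocytes summed to 85871, 85394, 95976 and 85253 CPM in libraries 1 to 4. Endothelial markers summed to 982 to 1011 CPM, fibroblast markers to 625 to 675 CPM, pericyte and smooth muscle markers to 766 to 859 CPM and macrophage markers to 206 to 234 CPM. In bulk RNA, fewer cells of a type and less RNA per cell cannot be told apart.

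Txnip took 4650, 2762, 9142 and 5584 of the counts of libraries 1 to 4, which is 323, 198, 869 and 364 CPM. Library 3 stood alone at the top and library 2 at the bottom, while libraries 1 and 4 were close to each other. The exact 95% Poisson limits, which cover counting error only, ran from 851 to 887 CPM for library 3, against 191 to 206 CPM for library 2. No limits of any pair of libraries overlapped. The mean was 438 ± 295 CPM (SD, n = 4), which placed Txnip 250th of the 12358 genes that averaged 1 CPM or more. Library 3 was 2.95-fold above the mean of the other libraries, and the highest library 4.38-fold above the lowest. Across all tested genes the median of that last ratio was 1.24, among those with a count in every library. A level in library 3 at least 2-fold above the mean of the others was found for 31 genes, or 0.251% of those tested.

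The cell type markers were read beside Txnip. The summed cardiomyocyte markers were also highest in library 3, by 1.13-fold over the lowest library. Myh6 made up most of that sum, at 47535, 48453, 56973 and 46667 CPM in libraries 1 to 4. Of the 7 markers 4 were highest in library 3, while Tnni3, Actc1 and Pln were not. Adipocyte markers summed to 1.11, 2.16, 3.80 and 1.56 CPM in libraries 1 to 4, with 0 of 6 at the level tested and Ucp1 at 0 counts in every library. Red cell markers summed to 19.4, 18.6, 8.17 and 16.7 CPM, with Hbb-b1 and Hba-a1 at 0 counts in every library. Nearly all of that sum was Alas2, at 17.1, 16.5, 7.22 and 15.2 CPM in libraries 1 to 4. Reads with no unique alignment, 983530 to 1372277 per library, were assigned to no gene, and whether they held globin reads was not tested. The part of these cell type markers in the Txnip level of library 3 was not tested.

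**Figure D1:**
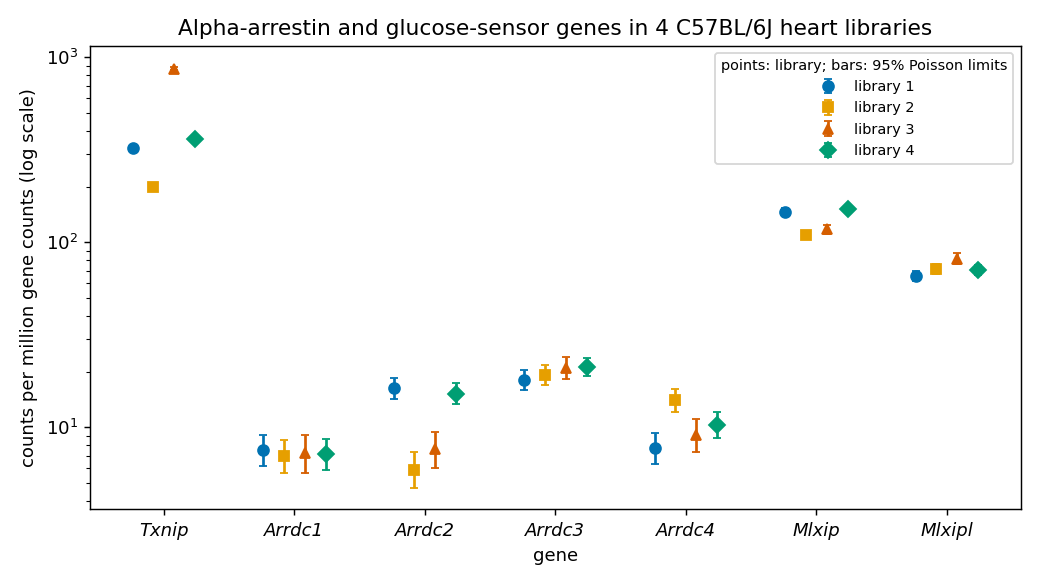
CPM (log axis) of the 7 genes in each of 4 libraries, with bars for exact 95% Poisson limits. Txnip runs between 198 and 869 CPM with library 3 on top, Arrdc2 is high in libraries 1 and 4, Arrdc4 is highest in library 2, and Arrdc1 is level.

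Part of the Txnip locus is shared with another gene. Txnip lies on chromosome 3, 96557957 to 96561883 on the plus strand (GENCODE M21, build GRCm38, also called mm10), with 6 separate exon blocks. Of its exon bases, 19.4% overlap Gm15441 on the minus strand. Reads of Txnip and Gm15441 cannot be told apart there, since the libraries kept no strand. Gm15441, chosen after its values were seen, had 21, 18, 20 and 21 counts in libraries 1 to 4, at most 1.90 CPM. These counts were far below those of Txnip in each library. How reads over the shared bases were assigned is not given, so the counts set no limit on what Gm15441 added there. Mlxip and Mlxipl shared 3.21% and 4.24% of their exon bases with genes that are not among the listed symbols, and the 4 Arrdc genes shared none. On the same annotation Mlxip lies on chromosome 5 at 123394798 to 123457932 and Mlxipl at 135089890 to 135138382, both on the plus strand. Arrdc1 (chromosome 2, 24925352 to 24935252), Arrdc2 (chromosome 8, 70835129 to 70839720) and Arrdc4 (chromosome 7, 68736995 to 68749241) lie on the minus strand. Arrdc3 lies on the plus strand of chromosome 13, 80883384 to 80896042.

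The spread of each gene was set against that of genes of like abundance. In edgeR's quasi-likelihood fit with an intercept as the only term, the variance of each gene was divided by the trend at its abundance. This variance ratio had a median of 0.852 over 12358 genes, and 55 of them (0.445%) were called more variable at a Benjamini-Hochberg adjusted p under 0.05. Txnip had a variance ratio of 125, the 4th highest of all, as its choice had required. Of the 7 genes, 2 (Txnip and Arrdc2) had a highest library at least 2-fold above the lowest, as did 5.80% of all tested genes. Without library 3 the variance ratio of Txnip was 32.9 and its highest library stood 1.83-fold above its lowest. In libraries 1 and 4 alone the variance ratio was 5.95, and library 4 was 1.13-fold above library 1. Of the other 6 genes 0 were called, against that background of 0.445%. At an unadjusted p under 0.05 edgeR had 3 of the 6 (Arrdc2, Arrdc4 and Mlxip), where 6.00% of all tested genes passed. Limma called 0 of the 6 and 0.405% of all tested genes, and DESeq2 marked Arrdc2 as a dispersion outlier, as it did 1.04% of genes.

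**Figure D2:**
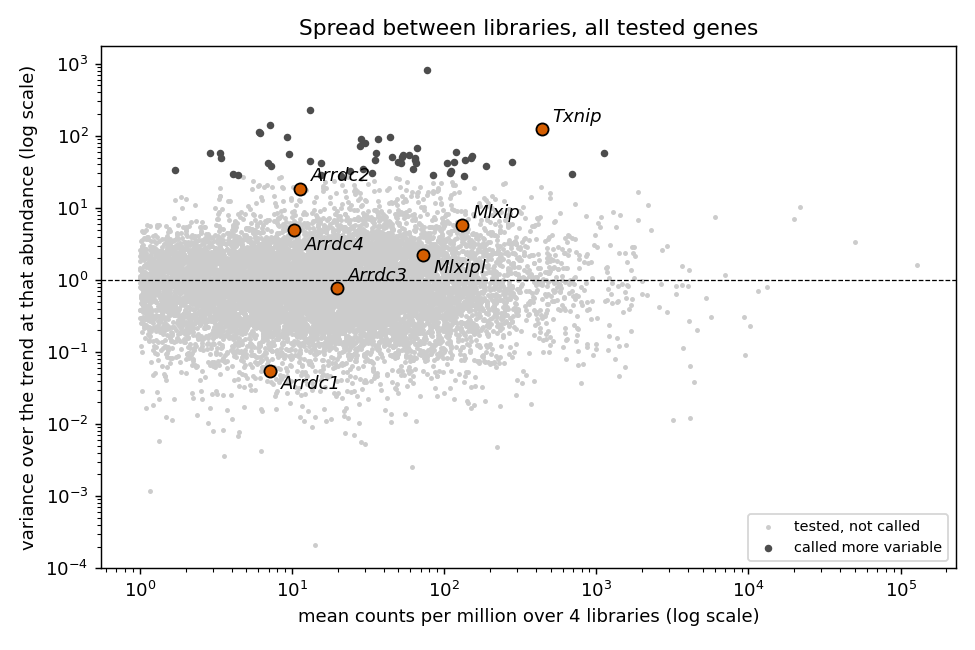
Variance between libraries over the trend at each abundance, against mean CPM, for 12358 tested genes (both axes log, dashed line at a ratio of 1, dark points for the 55 called genes). Txnip lies at 125, Arrdc2 at 18.5 and Arrdc1 at 0.0553.

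The alpha-arrestin relatives of Txnip were each low and followed other orders. Arrdc4, the closest of them to Txnip in regulation and likewise a brake on glucose uptake, had 7.70, 14.0, 9.12 and 10.3 CPM in libraries 1 to 4 (111, 195, 96 and 158 counts). It was highest in library 2, where Txnip was lowest, and 1.82-fold above its lowest library, library 1. Its variance ratio was 4.89 and it was not called (edgeR, adjusted p = 0.737). Library 3 stood at 0.855 times the mean of the others for Arrdc4. Without library 2 its highest library was 1.34-fold above its lowest.

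Within a library, the ratio of Txnip to Arrdc4 counts was 41.7, 14.1, 94.7 and 35.2 in libraries 1 to 4. The ratio does not depend on library scaling, and it ran over a 6.70-fold range, wider than that of Txnip itself. On the log2 scale it was 5.23 ± 1.13 (SD, n = 4), and 5.26 in libraries 1 and 4 alone. The ratio of Txnip to Txn1, the cytosolic thioredoxin that Txnip binds, was 12.8, 7.44, 36.4 and 13.2. Txn1 itself was steady at 23.9 to 27.4 CPM, so that ratio followed Txnip.

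Arrdc2 split the libraries in a different way. With 234, 82, 80 and 233 counts, it stood at 16.2, 5.89, 7.60 and 15.2 CPM in libraries 1 to 4. Libraries 1 and 4 were high and libraries 2 and 3 low, and the Poisson limits of the high and low libraries did not overlap. Libraries 2 and 3 are those whose Xist and Ddx3y counts went against their label, and the part of that in the result was not tested. Genes with libraries 1 and 4 both at least 1.5-fold above libraries 2 and 3 made up 0.914% of those tested, and those with any gap in that direction 23.7%. The variance ratio of Arrdc2 was 18.5, above that of 99.2% of tested genes, but it was not called (edgeR, adjusted p = 0.103). With no filter on low counts, where 1.48% of genes were called, edgeR called it (adjusted p = 0.000598). In libraries 1 and 4 alone, which leave out both low libraries, its edgeR adjusted p was 0.984. Over the other alternatives its adjusted p ran from 0.000598 to 0.308. The 1.07-fold difference between libraries 1 and 4 was within counting error.

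Arrdc3 and Arrdc1 were the steady members. Arrdc3, an adaptor linked to beta-adrenergic receptors and to body fat in mice, had 18.0, 19.2, 20.9 and 21.2 CPM in libraries 1 to 4, a 1.18-fold range. Its Poisson limits overlapped between all libraries, and its variance ratio was 0.776 (edgeR, adjusted p = 0.995). Arrdc1, which recruits the budding factor Tsg101 to the cell surface, had 7.49, 6.97, 7.22 and 7.16 CPM. That 1.08-fold range gave a variance ratio of 0.0553, higher than that of only 1.81% of tested genes. At 76 to 110 counts per library, the limits on Arrdc1 in library 1 ran from 6.15 to 9.05 CPM. Differences between libraries within such limits were not detectable at this depth. Arrdc3 stood 1.11, 3.24, 2.74 and 1.39 times above Arrdc2 in counts in libraries 1 to 4, a ratio that followed Arrdc2.

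The glucose sensors varied less than Txnip, as the choice of Txnip for its spread made likely. Mlxip had 146, 110, 118 and 151 CPM in libraries 1 to 4 (131 ± 20.2 CPM, SD, n = 4). It was high in libraries 1 and 4 and low in libraries 2 and 3, and its limits in library 3 (112 to 125 CPM) did not reach those of library 1 (140 to 153 CPM). The same split, of any size, was found for 23.7% of all tested genes. Xist and Ddx3y divide the libraries in this way too, against the label, and the part of that in the Mlxip levels was not tested. The 1.37-fold range of Mlxip gave a variance ratio of 5.84, not called (edgeR, adjusted p = 0.623). With libraries 1 and 4 alone its variance ratio was 0.16. Library 3, with the highest Txnip, had Mlxip at 0.871 times the mean of the other libraries.

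Mlxipl had 66.0, 71.7, 81.7 and 70.8 CPM in libraries 1 to 4 (72.5 ± 6.61 CPM, SD, n = 4). It was the only member besides Txnip that was highest in library 3, as were 22.9% of all tested genes. The limits of library 3 (76.3 to 87.4 CPM) lay above those of library 1 (61.9 to 70.3 CPM) and of library 4 (66.6 to 75.1 CPM), and began where those of library 2 ended. Its variance ratio was 2.19 (edgeR, adjusted p = 0.991). Mlxip counts were 2.21, 1.53, 1.44 and 2.13 times those of Mlxipl in libraries 1 to 4, so Mlxip was the more counted sensor in 4 of 4 libraries before length was taken into account.

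**Figure D3:**
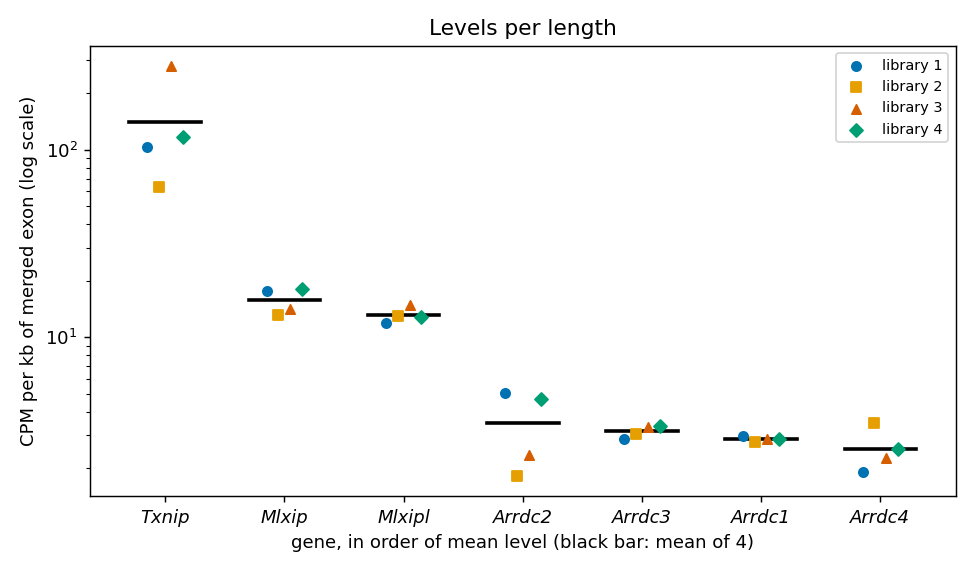
CPM per kilobase of merged exon (log axis) for the 7 genes in order of their mean level (black bars), with a point for each of 4 libraries. Txnip lies at 63.5 to 278, Mlxip and Mlxipl between 11.9 and 18.1, and the 4 Arrdc genes between 1.82 and 5.02.

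Per kilobase of merged exon, the 7 genes fell into 3 tiers. Txnip stood at 140 ± 94.6 CPM per kb (SD, n = 4), 7.73-fold above Mlxip as a geometric mean of within-library ratios. Mlxip followed with 15.8 ± 2.42 CPM per kb and Mlxipl with 13.1 ± 1.19 CPM per kb. The Arrdc genes formed the low tier, with Arrdc2 at 3.47 ± 1.62, Arrdc3 at 3.16 ± 0.240, Arrdc1 at 2.87 ± 0.0864 and Arrdc4 at 2.55 ± 0.669 CPM per kb (SD, n = 4 each).

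Between tiers the order held in 4 of 4 libraries. The log2 ratio was 2.95 ± 0.91 for Txnip over Mlxip and 2.04 ± 0.81 for Mlxipl over Arrdc2 (SD, n = 4). Each had an exact two-sided sign-flip permutation p of 0.125, the smallest that 4 libraries allow, and 0.375 after Benjamini-Hochberg adjustment over the 6 neighbouring pairs. Within tiers, no pair of neighbours differed by more than its spread over libraries. Mlxip over Mlxipl was 0.26 ± 0.32 on the log2 scale (exact p = 0.375, adjusted 0.45), higher in 3 of 4 libraries, and its sign turned to -0.17 with the length of the longest transcript. Arrdc2 over Arrdc3 was 0.01 ± 0.75 (exact permutation p = 1), higher in 2 of 4. Arrdc3 over Arrdc1 was 0.13 ± 0.13 (exact p = 0.25, adjusted 0.45) and Arrdc1 over Arrdc4 0.21 ± 0.40 (exact p = 0.375, adjusted 0.45), each higher in 3 of 4 libraries.

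Genes with a profile like that of Txnip were sought among the 9616 genes that averaged 5 CPM or more. Likeness was the root mean square difference between log2(CPM + 0.5) profiles over the 4 libraries, each centred on its mean, and it describes these libraries with no test. Myc, the growth-promoting transcription factor whose partner Max also belongs to the network around Mlx, was nearest at a difference of 0.16. It had 4.02, 3.02, 12.8 and 4.30 CPM in libraries 1 to 4, highest in library 3 as Txnip was. Myc was not called more variable (edgeR, adjusted p = 0.0886).

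Rmrp, the RNA of a mitochondrial and nucleolar ribonuclease, was the next nearest at 0.32, with 3.96, 4.60, 14.4 and 6.71 CPM in libraries 1 to 4. Pdk4, the kinase that shuts off pyruvate oxidation when fat is burned, differed by 0.35 and had 261, 158, 400.4 and 293 CPM. Srpk2, a kinase of splicing factors, also differed by 0.35 and had 36.5, 38.5, 90.4 and 43.0 CPM. Pdk4 shared both the highest and the lowest library with Txnip, whereas Rmrp and Srpk2 were lowest in library 1. Tbx18, Kpna2, B3galt2 and Ms4a4d filled the 8 nearest places at differences of 0.36 to 0.41, with a highest library 2.05 to 2.48 times the lowest. By the same measure the other 6 members were spread widely. Mlxipl came 1155th, Arrdc3 2035th, Arrdc1 3696th and Mlxip 5369th of 9616, while Arrdc2 and Arrdc4 came 9355th and 9356th.

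**Figure D4:**
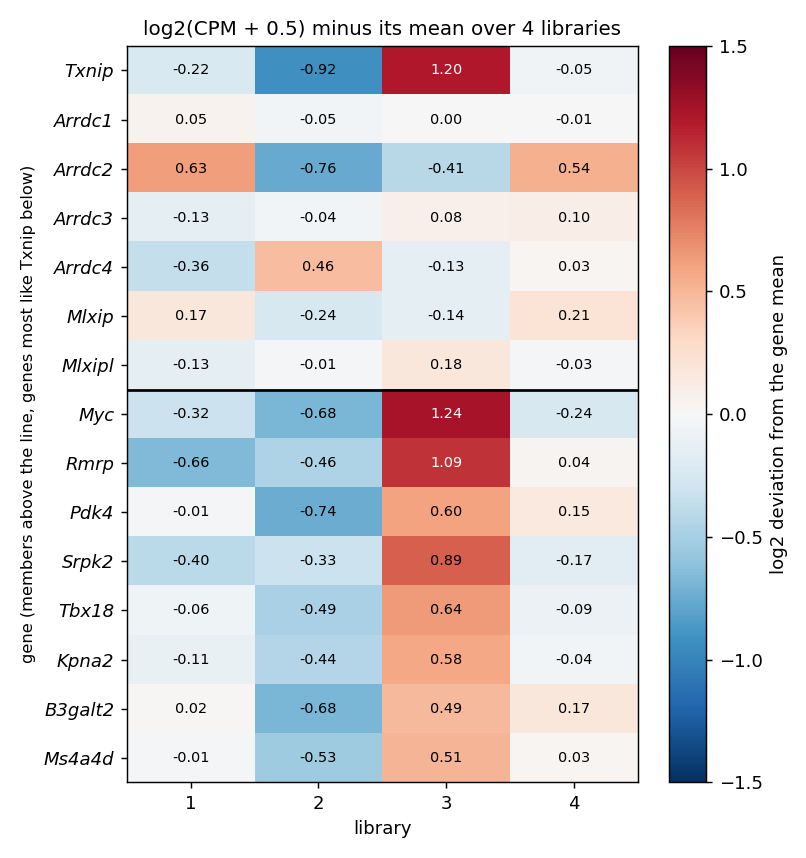
Deviation of log2(CPM + 0.5) from its mean over 4 libraries, for the 7 members (above the line) and the 8 genes nearest to Txnip (below it), a column for each library. Txnip and Myc deviate by 1.20 and 1.24 in library 3, Arrdc2 is positive in libraries 1 and 4 and negative in libraries 2 and 3, and Arrdc4 is highest in library 2.

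The wider pathway was read through 8 lists of genes. Around the sensors, 11 of 13 genes of the Max and Mlx network were tested and 0 were called by edgeR (4 at an unadjusted p under 0.05, where 6.00% of all genes passed, 0 by limma, 1 DESeq2 outlier), against 0.445% of all genes. The list's median variance ratio was 2.58, against 0.852 over all tested genes. Mlx, the obligate partner of both sensors, had 15.3, 16.5, 15.3 and 18.3 CPM in libraries 1 to 4. The most counted of the list were the E-box factor Usf2, at 99.3 to 108 CPM, and the repressor Mxd4, at 61.6, 39.7, 35.8 and 54.0 CPM.

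Genes known in liver and other tissues as targets of glucose signalling through Mlxipl or Mlxip formed the next list. Of 22, 17 were tested and 0 were called by edgeR (0 by limma, 1 DESeq2 outlier), where 0.445% of all genes were, a share that gives less than 1 call in a list of this size. At an unadjusted p under 0.05 edgeR had 6 of the 17, where 6.00% of all tested genes passed. The median variance ratio was 2.55, against 0.852 over all tested genes. Acacb, the muscle form of acetyl-CoA carboxylase, had 830, 896, 865 and 806 CPM in libraries 1 to 4. Fasn, the fatty acid synthase, had 60.6, 90.4, 81.2 and 60.6 CPM, higher in libraries 2 and 3 (edgeR, adjusted p = 0.308). Xist and Ddx3y divide the libraries in this way too, and the part of that in the Fasn levels was not tested. Thrsp, a lipogenic factor, had 31.0, 33.6, 14.4 and 28.0 CPM, lowest in library 3 where Txnip was highest (edgeR, adjusted p = 0.119). Klf10, a zinc finger repressor, had 17.0, 20.8, 26.8 and 16.0 CPM, with library 3 highest (edgeR, adjusted p = 0.47). In all, 4 of the 17 tested were highest in library 3, beside 22.9% of all tested genes. Library 2, where Txnip was lowest, was highest for 8 of the 17, beside 28.5% of all tested genes. The liver genes Pklr and G6pc had at most 2 counts in any library.

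Next came the RNAs of the proteins that Txnip and its relatives act on or with. Of 19 genes of the thioredoxin system, all tested, 0 were called by edgeR (0 at an unadjusted p under 0.05, 0 by limma and 0 DESeq2 outliers), beside 0.445% of all genes, and the median variance ratio was 0.663, against 0.852 over all tested genes. Prdx2, a cytosolic peroxiredoxin, had 286 to 311 CPM, and Txn2, the mitochondrial thioredoxin, 218 to 233 CPM. None of the 19 differed 2-fold between libraries, where 5.80% of all tested genes did. Other arrestin-fold genes and adaptors gave 0 calls by edgeR among 21 tested of 22, beside 0.445% of all genes. At an unadjusted p under 0.05 edgeR had 1, where 6.00% of all tested genes passed. Limma gave 0 calls and DESeq2 0 outliers, and the median variance ratio was 0.867.

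The adaptors included the ligases that act with or on Txnip. Nedd4, the ubiquitin ligase that alpha-arrestins recruit, had 455, 460, 468 and 480 CPM in libraries 1 to 4. Itch, a related ligase that marks Txnip for degradation, had 22.5 to 23.5 CPM, a 1.04-fold range. Pdcd6ip, a partner of the budding machinery, had 93.0 to 104 CPM. Arrdc5, the remaining alpha-arrestin, had 3 to 11 counts per library and was below the level tested.

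Glucose uptake was read next. Of 12 genes of transporters, hexokinases and insulin receptor substrates, 11 were tested and 0 were called by edgeR, beside 0.445% of all tested genes. At an unadjusted p under 0.05 edgeR had 1, where 6.00% of all tested genes passed. Limma called 0 and DESeq2 marked 0 outliers, beside 0.405% and 1.04%. The median variance ratio was 1.18, against 0.852 over all tested genes. Slc2a4, the insulin-responsive transporter that Txnip draws into the cell, had 626, 634, 638 and 634 CPM in libraries 1 to 4. Hk2, the main muscle hexokinase, had 557, 590, 603 and 553 CPM. Subunits of AMP-activated kinase, which marks Txnip for removal, had 0 of 7 called by edgeR. Of the 7, 1 passed at an unadjusted p under 0.05, 0 were called by limma and 0 were DESeq2 outliers. The shares over all tested genes were those given above, and the list's median variance ratio was 0.721. Of these subunits, Prkaa2 had 117 to 132 CPM and Prkag1 75.1 to 80.2 CPM.

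**Figure D5:**
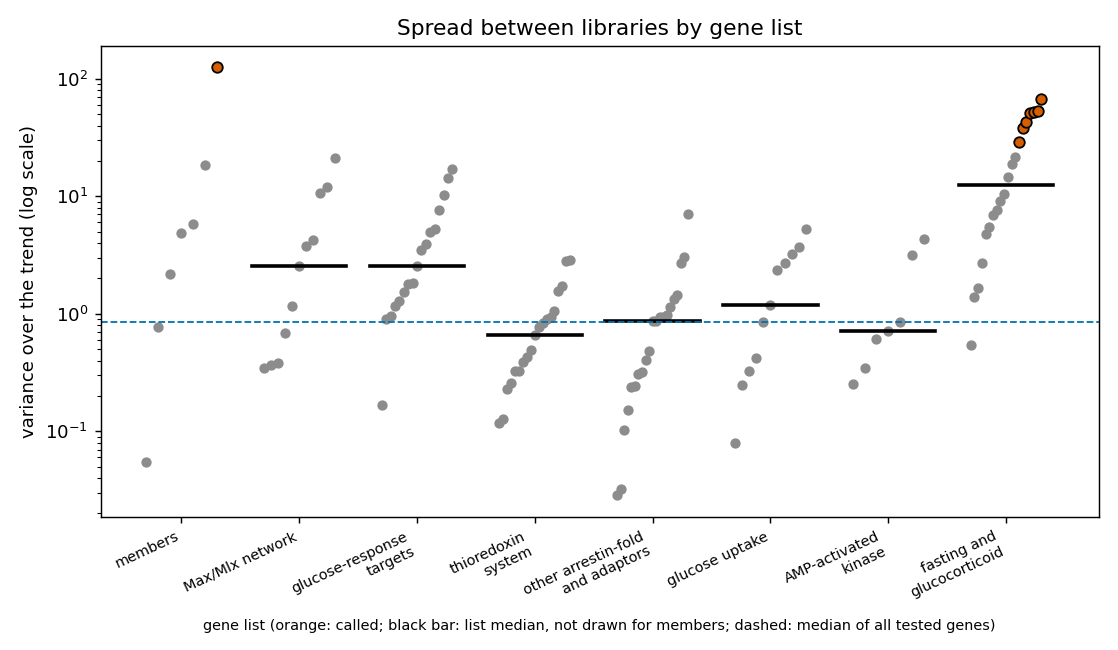
Variance ratio between libraries (log axis) of each tested gene, for the 7 members and 7 of the gene lists. Called genes of the lists are in orange and list medians are black bars. The median of all tested genes, 0.852, is a dashed line. Txnip is also in orange, though its spread is described and not tested. It stands apart from the other members, as its choice for that spread made likely. The thioredoxin list lies lowest with a median of 0.663, and called genes appear in the list of fasting and glucocorticoid action.

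Genes of fasting, FOXO and glucocorticoid action were the only one of these 8 lists with calls. All 20 were tested and 7 were called, 35.0% beside 0.445% of all genes, with a median variance ratio of 12.5 against 0.852. The list was drawn up with earlier results of these libraries known, so the count is no independent evidence. The called genes were 8430408G22Rik, Fkbp5, Per1, Ddit4, Pdk4, Angptl4 and Tsc22d3. In 19 of the 20, library 2 was lowest, as it was for Txnip and for 30.7% of all tested genes. Library 3 was highest in 8 of the 20, beside 22.9% of all tested genes.

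Among these called genes the order of the remaining libraries differed. Angptl4, an inhibitor of lipoprotein lipase, had 6.66, 1.37, 15.4 and 5.60 CPM in libraries 1 to 4, with the same highest and lowest library as Txnip and Pdk4. 8430408G22Rik had 76.7, 22.8, 86.1 and 79.4 CPM, also highest in library 3 and lowest in library 2, but with library 3 only a little above libraries 1 and 4. Fkbp5, a cochaperone of the glucocorticoid receptor, had 79.0, 25.2, 50.5 and 81.8 CPM, and the clock gene Per1 had 201, 73.4, 138 and 196 CPM. In both, library 3 lay between library 2 and the others. Zbtb16, a glucocorticoid-induced zinc finger factor, had 303, 178, 195 and 301 CPM and was not called (edgeR, adjusted p = 0.0867). Fkbp5, Per1 and Zbtb16 were higher in libraries 1 and 4 than in libraries 2 and 3. That held for 23.7% of all tested genes at any size, and for 0.914% by at least 1.5-fold. Xist and Ddx3y divide the libraries in this way too, and the part of that in these levels was not tested.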

How the data were processed

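Per the labels' protocols, RNA was taken from frozen ventricular tips, selected on oligo(dT), fragmented and made into single-end libraries without strand. For each gene symbol, the deposited files give a raw count, not normalized by the authors. The submitters' processing notes name, with no roles, HTSeq, TopHat2 2.0.10, TopHat, Bowtie2, edgeR, DESeq and build mm10, and no source used here gives the annotation or how reads were assigned. The 5 closing rows that name no gene (8.96 to 9.30% of listed reads) were left out, and CPM is counts per 1000000 gene counts. Rn45s, a ribosomal RNA gene, took 12.8, 14.1, 11.9 and 12.3% of those gene counts in libraries 1 to 4 and was kept in the total. The labels do not tie libraries to separate animals, so p-values measure the spread between these libraries, which may be technical.

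Spread was tested with edgeR 4.0.16 in R 4.3.3, with trimmed mean of M-values (TMM) factors, a robust prior and genes of at least 1 mean CPM, and checked on simulated counts. The members and lists were chosen with earlier results of these data known. Named genes are the members, the 8 genes most like Txnip, and of each list up to 5 called members and the 2 most counted. Mlx, Thrsp, Klf10, Pklr, G6pc, Itch, Arrdc5, Angptl4, Tsc22d3 and Gm15441 were named after their values were seen. Alternatives were other scaling, filters and priors, limma 3.58.1, DESeq2 1.42.0, other lengths and pseudocounts, and leaving out libraries.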

Additional observations from a re-analysis of the deposited data

Results flagged for a closer look

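Of 22 sets of values examined for a library far from the other 3 (the 6 genes besides Txnip and 16 summed lists), 3 were marked, where chance marks about 1 in 20. The gap to the nearest library, as a share of the whole range, was 0.942 for the summed cardiomyocyte markers, with library 3 highest at 95976 CPM. It was 0.855 for the summed genes of glucose transport, hexokinases and insulin receptor substrates, with library 3 highest at 1873 CPM beside 1805 to 1815 CPM in the others. Slc2a4 and Hk2 were the most counted of that list, at 638 and 603 CPM in library 3 beside 626 to 634 and 553 to 590 CPM in the others. The gap was 0.851 for the summed glucose-response targets, with library 2 highest at 1482 CPM beside 1362 to 1380.1 CPM in the others. Acacb made up most of that sum, at 896 CPM in library 2 beside 806 to 865 CPM in the others. Fasn was at 90.4 CPM in library 2 beside 60.6 to 81.2 CPM. The cardiomyocyte sum was mostly Myh6, at 56973 CPM in library 3 beside 46667 to 48453 CPM in the other libraries.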

How the results depend on the processing

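The count of 55 genes called in the test of spread was 258 with no filter on low counts, 129 as DESeq2 dispersion outliers, 10 without the robust prior and 6 in libraries 1 and 4 alone. All 10 of that setting were among the 55, and 0 of the 6 were. Leaving out each library in turn gave 39 to 69. Of the 6 tested members, Arrdc2 alone gained a call, in the first 2 of these settings. With the length of the longest transcript, the log2 ratio of Mlxip over Mlxipl was -0.17 and that of Arrdc2 over Arrdc3 -0.13. With no correction for length, Arrdc2 over Arrdc3 was -0.94 and Arrdc1 over Arrdc4 -0.47. Leaving out a library, Arrdc2 over Arrdc3 ran from -0.25 (without library 1) to 0.26. These turns follow from the lengths or libraries used. The log2 ratio of library 3 to the others for Txnip stayed between 1.34 and 1.74 over scalings and left-out libraries. Mean CPM rose in all members when Rn45s was left out of the total. That rise passed the SD over libraries for Arrdc1 (7.21 to 8.26), Arrdc3 (19.8 to 22.7) and Mlxipl (72.5 to 83.1). With Pearson correlation in place of the root mean square difference 1 of the 8 genes most like Txnip remained, and 5 remained with a minimum of 1 CPM. No paired analysis was possible because the 4 libraries form a single group.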

Other observations

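Inflammasome genes, through which Txnip has been linked to inflammation in other cells, were scarce in these libraries. Of 5 genes only the adaptor Pycard reached the level tested, with 9.71, 10.1, 8.46 and 7.88 CPM in libraries 1 to 4. Nlrp3 had 0.475 to 1.29 CPM. Lymphocyte and neutrophil markers summed to 2.21 to 3.38 CPM, with 1 of 6 at the level tested. Of these, 0 were called more variable, beside 0.445% of all tested genes.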
